A study of Mus musculus with 6 samples.

Results

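The 10 genes Glul, Oat, Slc1a2, Rhbg, Lgr5, Axin2, Rnf43, Tbx3, Gulo and Lhpp belong to the hepatocytes around the central vein and to the Wnt response there. They were taken by symbol from a table of 46983 genes, each matched 1 row, and all 10 passed the filter on low counts. RNA was sequenced from whole livers of chow-fed, untreated mice on a C57BL/6 background at 12 weeks of age. The knockout mice, AEG-1DHEP, lack AEG-1 (the product of Mtdh) in hepatocytes, and the control mice, AEG-1fl/fl, carry the conditional allele and are titled WT. The labels give 3 mice per group. Control replicates 1 and 2 have the same value in all 46983 rows, a difference below sampling noise, and were counted as 1 sample under the name control replicate 1. This left 3 knockout and 2 distinct control libraries. The sources used here give neither the Cre driver nor the sex of the mice, and liver cells other than hepatocytes keep Mtdh by design.

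In the liver, endothelial cells of the central vein secrete Wnt ligands and R-spondins. These stabilise beta-catenin in the nearest hepatocytes, where it acts with TCF factors on genes of glutamine synthesis, ammonia and drug handling, while hepatocytes near the portal vein run the urea cycle. The ring of cells around the vein is known for taking up glutamate and the ammonia that escaped the urea cycle and for releasing glutamine. The same Wnt signal turns on its own brakes and amplifiers, among them Axin2, Rnf43 and Lgr5.

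Promoter windows were available from RefSeq (GRCm38.p6) for 5 of the 10 genes, Glul, Oat, Slc1a2, Axin2 and Rnf43. Each window holds 250 bases before and 50 bases after a transcript start, 5′ to 3′ on the gene's strand. They were searched on both strands for the 7-base TCF/LEF core motif in 4 forms: CTTTGAA with its variant CTTTGAT, and likewise CTTTGTA with its variant CTTTGTT. Of the 6 windows (Rnf43 has 2), 1 held a match, and 16.9% of all 32851 windows in the table did. The match is ATCAAAG, the other-strand form of CTTTGAT, beginning 207 bases before the listed Slc1a2 start. That start lies inside the Slc1a2 row of the count table, which begins further upstream. The windows of Glul (plus strand), Slc1a2 (plus strand), Axin2 (plus strand) and Oat (minus strand) are shown because Glul, Slc1a2 and Axin2 are the glutamine, glutamate and Wnt feedback genes compared below, and Oat is 1 gene of a neighbouring pair. Capitals mark the motif match, and a window without capitals holds none of the 4 forms.
Glul, chr1:153899679-153899978: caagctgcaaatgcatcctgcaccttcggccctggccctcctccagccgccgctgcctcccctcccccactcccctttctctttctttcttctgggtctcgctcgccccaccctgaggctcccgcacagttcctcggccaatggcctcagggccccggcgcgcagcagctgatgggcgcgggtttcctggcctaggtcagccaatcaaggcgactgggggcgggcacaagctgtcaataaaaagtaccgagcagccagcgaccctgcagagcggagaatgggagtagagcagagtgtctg
Slc1a2, chr2:102706188-102706487: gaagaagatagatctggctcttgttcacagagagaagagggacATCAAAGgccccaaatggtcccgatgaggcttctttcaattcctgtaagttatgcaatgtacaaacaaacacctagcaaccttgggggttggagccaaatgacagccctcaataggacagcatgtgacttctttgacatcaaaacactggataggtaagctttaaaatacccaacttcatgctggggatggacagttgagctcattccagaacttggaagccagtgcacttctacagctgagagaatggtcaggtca
Axin2, chr11:108920099-108920398: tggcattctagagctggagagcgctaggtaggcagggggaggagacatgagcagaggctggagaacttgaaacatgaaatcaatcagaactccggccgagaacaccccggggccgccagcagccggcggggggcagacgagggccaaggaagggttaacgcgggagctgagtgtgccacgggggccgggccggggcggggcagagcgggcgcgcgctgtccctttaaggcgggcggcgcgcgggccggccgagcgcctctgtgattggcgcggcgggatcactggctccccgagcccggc
Oat, chr7:132576349-132576648: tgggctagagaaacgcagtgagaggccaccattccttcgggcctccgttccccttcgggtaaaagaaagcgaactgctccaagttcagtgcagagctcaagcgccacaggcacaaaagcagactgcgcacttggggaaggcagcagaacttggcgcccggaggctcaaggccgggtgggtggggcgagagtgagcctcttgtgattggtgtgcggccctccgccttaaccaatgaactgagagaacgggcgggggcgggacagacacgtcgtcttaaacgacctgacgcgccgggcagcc

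The libraries held 29557477 to 33685670 counts. Levels are given in CPM, counts scaled to library size with TMM factors. The titles call the libraries biological replicates. Mtdh had 89, 74 and 76 counts in the knockout libraries and 1529 and 1612 in the control libraries, so each library went with its label. Of all pairs of libraries, the 2 controls were the least alike: their chi-square divided by its degrees of freedom was 226.9, and in the other pairs it was 44.5 to 156.5. It was lowest, at 44.5, for knockout replicates 1 and 2, and next lowest, at 49.4, for knockout replicate 3 with control replicate 3. Against the other knockout libraries, knockout replicate 3 was at 86.3 and 105.9. All 10 hepatocyte markers were detected, with a summed level of 95421 to 108168 CPM in knockout and 91346 to 125022 CPM in control livers. All 10 endothelial markers had lower fitted levels in knockout livers, with sums of 183 to 256 CPM there and 248 to 296 CPM in controls. Macrophage and stellate cell markers each had 9 of 10 fitted levels lower in knockout livers, with summed levels that overlapped between the groups. The 5 skeletal muscle markers summed to 25.6 CPM in knockout replicate 1 and to 0.603 to 1.19 CPM in the other libraries. The 7 adipocyte markers summed to 23.9, 31.8 and 11.4 CPM in the knockout and 12.3 and 13.99 CPM in the control libraries, with Adipoq at 0 or 1 count. The part of these markers in the results below was not tested. In whole tissue, fewer cells of a type and less RNA per cell cannot be told apart.

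None of the 10 genes passed the test between knockout and control livers. The edgeR quasi-likelihood test, adjusted over 16441 genes at a threshold of 0.05, called 0 of the 10, and in the whole table it called 0 genes higher (0%) and 1 lower (0.00608%), Mtdh itself. DESeq2 and limma-voom also called 0 of the 10, while DESeq2 called 0.0365% of all genes higher and 0.0791% lower. At an unadjusted p under 0.05 there was 1 of the 10, Glul, where 1.63% of all genes were higher and 1.80% lower. The log2 fold change was above 0 for 8 of the 10 genes, with a median of 0.16. Leaving out knockout replicate 2 gave a median of 0.08, leaving out control replicate 3 gave 0.10 and leaving out knockout replicate 3 gave 0.26. Over all genes, 52.1% were above 0 and the median was 0.01. The knockout libraries lay wholly above the control libraries for 2 of the 10 genes, Glul and Gulo, and wholly below for 0. Over all genes, 8.16% lay wholly above and 8.72% wholly below. The 95% interval stayed within 1 of 0 on the log2 scale for 6 of the 10 genes and for 74.8% of all genes.

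**Figure D1:**
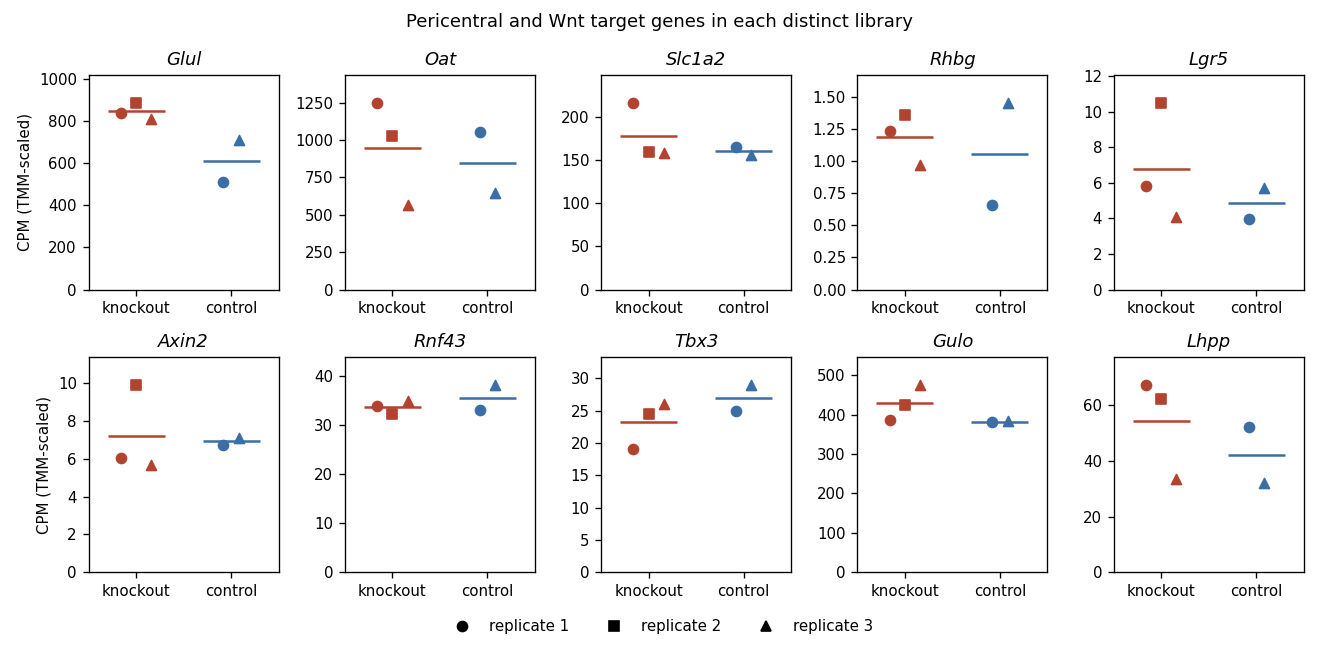
Level of each of the 10 genes in CPM (vertical axis from 0), with 1 point per distinct library, knockout at the left and control at the right of each panel, the mean as a line and the replicate number as the symbol. Glul and Gulo are the genes whose knockout points all lie above the control points, while Oat and Lhpp have their low points in replicate 3 of both groups.

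The genes of glutamate uptake, glutamine synthesis and ammonia transport all had fold changes above 0, and Glul had the largest of them. Glul (ENSMUSG00000026473, chromosome 1, 153899944 to 153909723 on GRCm38, plus strand) encodes glutamine synthetase, which joins ammonia to glutamate and marks the innermost ring of pericentral hepatocytes. It had 839, 885 and 810.0 CPM in knockout livers, against 508 and 711 CPM in control livers. Every knockout library was above both controls, the 3 knockout libraries lay close together, and the controls lay far apart. The means were 845 ± 38.0 CPM in knockout livers (SD, n = 3) and 609 ± 144 CPM in control livers (SD, n = 2). The log2 fold change was 0.47 (SE 0.18, 95% interval 0.03 to 0.91), with an edgeR p of 0.0385 that became 1.00 after adjustment. The knockout mean was 1.39 times the control mean, which was no larger than the ratio between the control libraries themselves. Against control replicate 1 alone the log2 fold change was 0.74, and against control replicate 3 alone it was 0.24. The row of Teddm2, on the opposite strand, overlaps the Glul span by 285 bases and held 0.210% to 0.329% of the Glul count in each library.

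Oat (ENSMUSG00000030934, chromosome 7, 132557475 to 132576398, minus strand) encodes ornithine aminotransferase, which turns ornithine into a precursor of glutamate in the same cells. It had 1249.7, 1026 and 565 CPM in knockout livers, against 1056 and 644 CPM in control livers. Replicate 3 was the low library in each group and the groups overlapped. Oat had a fitted log2 fold change of 0.16 (SE 0.37, 95% interval -0.72 to 1.03). A single library decided its sign, since it was -0.10 when knockout replicate 1 was left out and -0.16 when control replicate 3 was.

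Slc1a2 (ENSMUSG00000005089, chromosome 2, 102658659 to 102790784, plus strand), a glutamate transporter of the plasma membrane, had 216, 159 and 158 CPM in knockout livers, against 166 and 156 CPM in control livers. Knockout replicate 1 was the high library, and the others lay within a narrow band. For Slc1a2 the fit gave a log2 fold change of 0.15 (SE 0.18, 95% interval -0.27 to 0.57), and it was -0.02 without knockout replicate 1. Rhbg (ENSMUSG00000104445, chromosome 3, 88242874 to 88254709, minus strand), an ammonia transporter, was the least counted of the 10, with 38, 45 and 31 counts in the knockout and 21 and 43 counts in the control libraries. These are 1.24, 1.36 and 0.969 CPM in knockout livers, against 0.659 and 1.46 CPM in control livers. The control libraries enclosed all the knockout values. For Rhbg the fitted log2 fold change was 0.17 (SE 0.39, 95% interval -0.75 to 1.10), and it was -0.30 without control replicate 1. The row of Gm38392, on the same strand, overlaps the Rhbg span by 11330 bases. It held 1, 0 and 0 counts in the knockout and 2 and 0 counts in the control libraries. How reads from bases shared by both rows were counted is not stated.

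The 4 genes of the Wnt response did not share a direction. Lgr5 (ENSMUSG00000020140, chromosome 10, 115450311 to 115587780, minus strand) encodes a receptor for R-spondins that amplifies Wnt signals. It had 5.83, 10.5 and 4.06 CPM in knockout livers, against 3.99 and 5.72 CPM in control livers. Knockout replicate 2 stood above every other library and the groups overlapped. The log2 fold change was 0.49 (SE 0.41, 95% interval -0.49 to 1.46), and it was 0.03 without knockout replicate 2. Axin2 (ENSMUSG00000000142, chromosome 11, 108920349 to 108950783, plus strand), a scaffold of the complex that destroys beta-catenin and a widely used readout of Wnt activity, had 6.02, 9.90 and 5.66 CPM in knockout livers, against 6.75 and 7.11 CPM in control livers. Knockout replicate 2 was again the high library, and the remaining knockout libraries were below both controls. For Axin2 the fitted log2 fold change was 0.05 (SE 0.27, 95% interval -0.58 to 0.69), and it was -0.25 without knockout replicate 2.

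Rnf43 (ENSMUSG00000034177, chromosome 11, 87662722 to 87735539, plus strand) encodes a ubiquitin ligase that removes Frizzled receptors from the cell surface. It had 33.9, 32.3 and 34.9 CPM in knockout livers, against 33.0 and 38.1 CPM in control livers. Its values were the closest together of the 10 genes, with a ratio of 1.18 between the highest and the lowest library. Its log2 fold change was -0.08 (SE 0.11, 95% interval -0.34 to 0.19), the narrowest interval of the 10. Without control replicate 3 it was 0.03. The row 1110028F11Rik, annotated as sense intronic inside Rnf43, held 3.83% to 4.51% of its count.

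Tbx3 (ENSMUSG00000018604, chromosome 5, 119670669 to 119684724, plus strand), a T-box transcriptional repressor, had 19.1, 24.5 and 26.1 CPM in knockout livers, against 24.9 and 28.9 CPM in control livers. Knockout replicates 1 and 2 were below both controls and knockout replicate 3 lay between them. Tbx3 had a log2 fold change of -0.21 (SE 0.16, 95% interval -0.60 to 0.17). It was -0.09 when knockout replicate 1 was left out, -0.10 against control replicate 1 alone and -0.32 against control replicate 3 alone. Its antisense neighbour Tbx3os1, named here after its values were seen, starts head to head with Tbx3 and its row overlaps the Tbx3 span by 697 bases. Tbx3os1 had 9.12, 10.1 and 11.8 CPM in knockout livers, against 6.81 and 7.01 CPM in control livers. All the knockout libraries were above the controls, opposite in sign to Tbx3. The log2 fold change of Tbx3os1 was 0.58 (SE 0.16, 95% interval 0.20 to 0.97), with an edgeR p of 0.00956 and an adjusted p of 1.00. Whether the counting used strand is not stated, so reads from the shared bases cannot be told apart.

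Gulo (ENSMUSG00000034450, chromosome 14, 65986787 to 66009210, minus strand) encodes the enzyme of the last step of vitamin C synthesis, which mice carry out in the liver. It had 387, 425 and 474 CPM in knockout livers, against 380.5 and 384 CPM in control livers. The knockout libraries were all above the controls, the lowest of them only just. Gulo had a log2 fold change of 0.17 (SE 0.14, 95% interval -0.18 to 0.51), which was 0.09 when knockout replicate 3 was left out. Lhpp (ENSMUSG00000030946, chromosome 7, 132610638 to 132706420, plus strand), a histidine phosphatase, had 67.2, 62.2 and 33.6 CPM in knockout livers, against 52.4 and 31.9 CPM in control livers. As for Oat, replicate 3 was the low library of each group. For Lhpp the log2 fold change was 0.37 (SE 0.34, 95% interval -0.44 to 1.17). Against control replicate 3 alone it was 0.76, and against control replicate 1 alone 0.06.

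**Figure D2:**
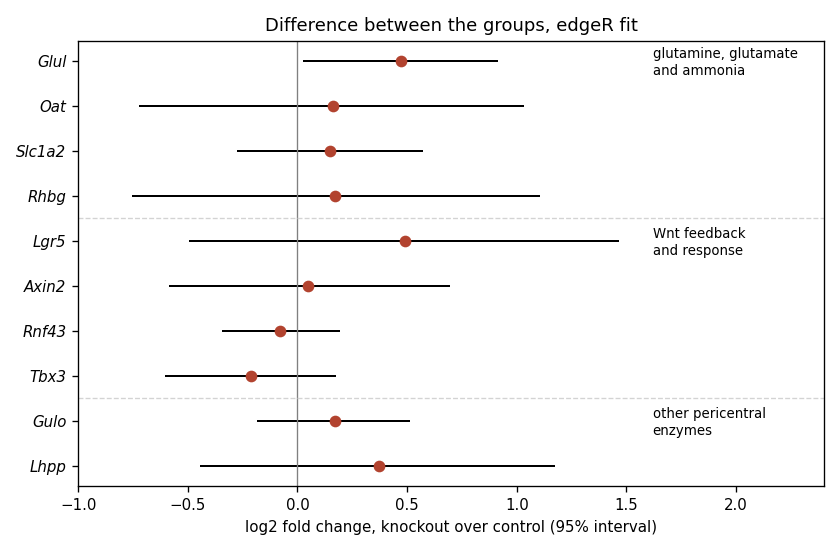
Fitted log2 fold change of each of the 10 genes, knockout over control (horizontal axis), as a point with its 95% interval from edgeR, grouped by role. The interval of Glul runs from 0.03 to 0.91 and does not reach 0, the other 9 cross 0, and that of Rnf43 (-0.34 to 0.19) is the narrowest.

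Comparing the knockout libraries with each control library on its own separated the genes further. Glul, Gulo, Slc1a2, Lgr5, Axin2 and Lhpp had fold changes above 0 against either control, and Tbx3 had one below 0 against either. The Axin2 knockout mean was 7.19 CPM, only just above control replicate 3 at 7.11 CPM. Leaving out a knockout library did change the sign for Axin2 (-0.25 without replicate 2) and Slc1a2 (-0.02 without replicate 1). Oat, Rhbg and Rnf43 changed sign between the controls. For Oat the log2 fold change was 0.55 against control replicate 3 alone and -0.16 against control replicate 1 alone. For Rhbg it was -0.30 against control replicate 3 and 0.85 against control replicate 1, and for Rnf43 it was -0.18 and 0.03 in the same order. Gulo gave 0.15 and 0.18.

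**Figure D3:**
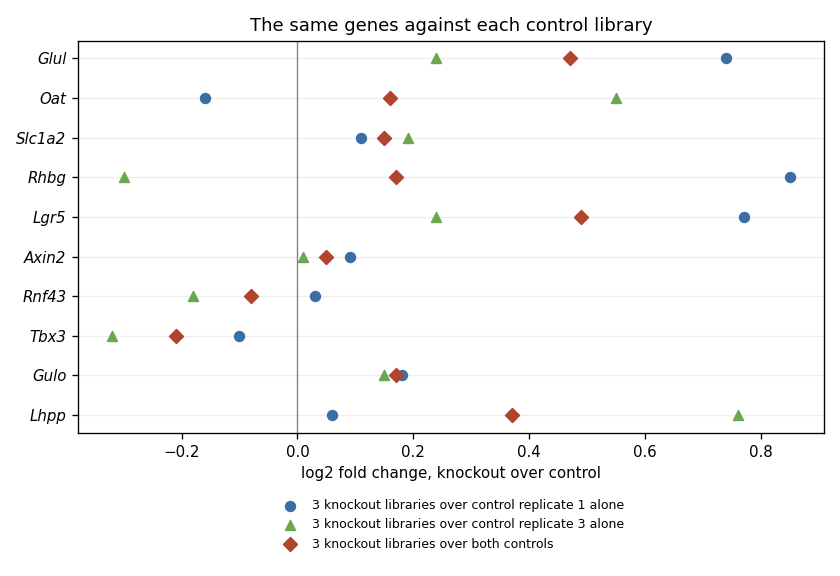
Fitted log2 fold change of each gene (horizontal axis) with both distinct control libraries (diamonds), with control replicate 1 alone (circles) and with control replicate 3 alone (triangles). Glul stays above 0 with either control (0.74 and 0.24), while Oat, Rhbg and Rnf43 lie on both sides of 0.

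Divided by the summed exon length of each row, the levels of the 10 genes spanned the whole range from abundant enzymes to scarce receptors. Oat had 439 ± 162 CPM per kb in knockout and 395 ± 135 in control livers, Glul 254 ± 11.4 and 183 ± 43.2, and Gulo 189 ± 19.3 and 169 ± 1.10 (SD, n = 3 and 2). Lhpp followed with a mean of 26.1 CPM per kb in knockout and 20.2 in control livers, and Slc1a2 with 13.5 and 12.2. Rnf43 had 5.14 and 5.42, Tbx3 3.50 and 4.06, Axin2 1.31 and 1.26, Lgr5 0.662 and 0.473, and Rhbg 0.613 and 0.546, each in the same order of groups. Of the neighbours in this order, Oat and Glul, Glul and Gulo, Lhpp and Slc1a2, and Lgr5 and Rhbg overlapped over the 5 libraries, and the other 5 steps did not. The summed exon length counts every annotated isoform, so a gene with long, rarely used exons gets a lower value.

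Oat and Lhpp are neighbours, and their levels went up and down together across the libraries irrespective of group. They lie on opposite strands with their starts facing away from each other, 34.2 kb apart. The 2 rows between them, Nkx1-2 and its antisense partner Gm16764, held almost no counts, with at most 6 of Nkx1-2 in any library. Knockout replicate 3 had 0.497 of the mean of the other knockout libraries for Oat and 0.519 for Lhpp, and control replicate 3 had 0.610 of control replicate 1 for Oat and 0.609 for Lhpp. The likeness of a pair was measured as the root mean square difference of their log2 CPM over the 5 distinct libraries, each gene centred on its own mean. For Oat and Lhpp it was 0.124, the smallest of the 45 pairs among the 10 genes. Ranked by likeness to Oat, Lhpp came in place 2 of 10104 genes with a mean of at least 5 CPM, behind the desaturase gene Scd2 (0.123), and Oat came in place 3 for Lhpp. This ranking for Oat was chosen after the values were seen. The 10 other tested genes within 1 Mb differed from the Oat profile by 0.349 to 0.620. The Oat profile itself had a root mean square of 0.443, which is the difference that a gene at a constant level would have. Chst15, the nearest tested gene on the other side of Oat, was at 0.349, and Fam53b, beyond Lhpp, at 0.473. An Fgfr2 row of the table spans both genes, with 1051, 1077 and 1256 counts in the knockout and 1565 and 1212 in the control libraries, and did not follow them.

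**Figure D4:**
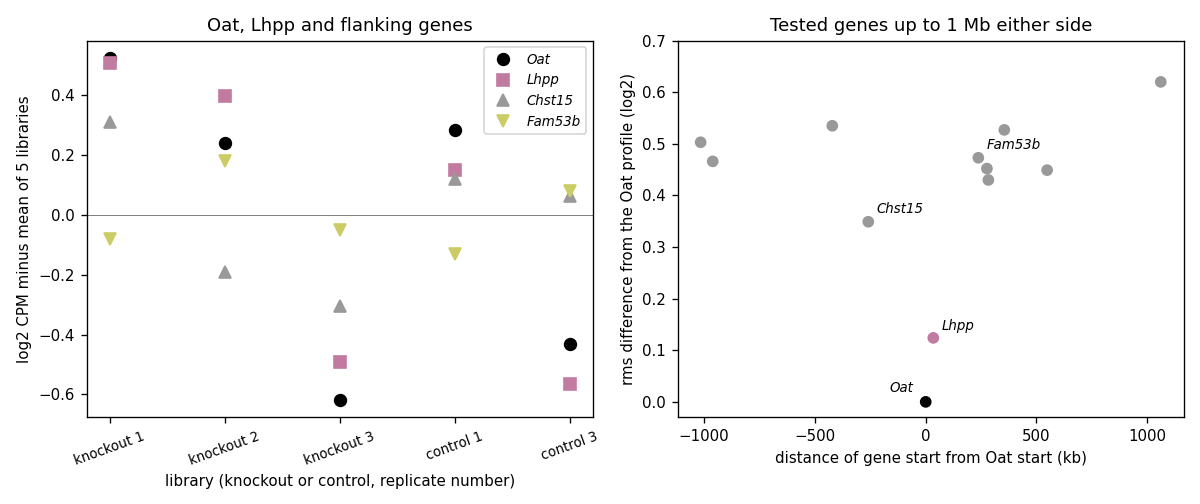
Left, log2 CPM of Oat, Lhpp and the flanking genes Chst15 and Fam53b in each library, minus the gene's mean over the 5 libraries. Right, root mean square difference from the Oat profile against the distance of each tested gene's start from that of Oat in kb, with Lhpp at 0.124 and the 10 other genes at 0.349 or more.

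Beyond the 10 genes, the genes whose profile over the 5 libraries was most like that of Glul were Nceh1 (a cholesterol ester hydrolase), Cdk6 (a cell cycle kinase), Cib1 (a calcium-binding protein), Lect2 and Fgfrl1 (an FGF receptor-like protein), with root mean square differences of 0.034, 0.045, 0.052, 0.053 and 0.054 on the log2 scale, among 10104 genes ranked. The Glul profile itself had a root mean square of 0.288. Lect2, a hepatocyte-secreted protein known as a beta-catenin target, is also on the list of other pericentral genes. It had 107, 114 and 94.7 CPM in knockout livers, against 65.4 and 87.6 CPM in control livers. Every knockout library was above both controls, an order that its likeness to the Glul profile had already fixed. Its log2 fold change was 0.46 (SE 0.17), and 0.26 against control replicate 3 alone.

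Among 18 other genes of pericentral hepatocytes, all tested, the fold change was above 0 for 14 and below 0 for 4, with a median of 0.26 against 0.01 over all genes. The edgeR test called 0, 2 were higher at an unadjusted p under 0.05 (1.63% of all genes), and DESeq2 called 0. The groups did not overlap in 6 of them, 5 higher (8.16% of all genes) and 1 lower (8.72% of all genes). Cyp2e1, the ethanol-oxidising cytochrome P450, had 7370.1, 7012 and 7904 CPM in knockout livers, against 5512 and 5995 CPM in control livers. Each knockout library was above both controls, and the log2 fold change was 0.37 (SE 0.17, edgeR adjusted p 1.00). Aldh3a2, a fatty aldehyde dehydrogenase, had 666 and 569.6 CPM in knockout replicates 1 and 2 and 339 in replicate 3, against 229 and 367 CPM in control livers, with a log2 fold change of 0.82 (SE 0.33) and overlapping groups. It was 0.51 against control replicate 3 alone. Without control replicate 3 the median of this list was 0.54, and without control replicate 1 it was 0.22.

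The 12 periportal genes, taken as the opposite zone and each tested on its own, lay mostly on the other side of 0. The fold change was below 0 for 9 and above 0 for 3, with a median of -0.30. Leaving out control replicate 1 gave -0.11, leaving out knockout replicate 2 gave -0.12 and leaving out control replicate 3 gave -0.48. The edgeR test called 0 and 1 was lower at an unadjusted p under 0.05 (1.80% of all genes). The knockout libraries lay wholly below the controls for 1 of the 12 (8.72% of all genes) and wholly above for 0 (8.16% of all genes). Hal, which starts histidine breakdown, had 368, 371 and 425 CPM in knockout livers, against 764 and 572 CPM in control livers, and the groups were apart. On the log2 scale the difference was -0.79 with an SE of 0.17. DESeq2 called Hal at an adjusted p of 0.0218, its 1 call on this list, and edgeR did not at an adjusted p of 1.00. For Sds, serine dehydratase, the log2 fold change was -0.52 (SE 0.28). It was -0.15 against control replicate 3 alone, -0.81 against control replicate 1 alone and -0.33 when knockout replicate 2 was left out. Aldh1b1, a mitochondrial aldehyde dehydrogenase, had one of -0.47 (SE 0.26), which was 0.08 without control replicate 1. The summed level of the periportal genes was 13223, 8917 and 14464 CPM in the knockout and 15306 and 12851 CPM in the control libraries, so the groups overlapped and knockout replicate 2 was the low library. No test compared the pericentral with the periportal list.

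The pathway around glutamine showed no call either. Of 28 genes of glutamine, glutamate, ornithine and ammonia handling, 27 were tested, of which 8 had fold changes above 0 and 19 below, with a median of -0.19. The median shrank to -0.05 with control replicate 1 left out and to -0.10 with knockout replicate 2 left out. This list shares 5 genes with the periportal list and Slc38a3 with the pericentral list. The edgeR test and DESeq2 called 0, and 2 were lower at an unadjusted p under 0.05 (1.80% of all genes). The knockout libraries lay wholly below the controls for 5 of the 27 (8.72% of all genes) and wholly above for 0 (8.16% of all genes). The fit gave -0.65 (SE 0.25) on the log2 scale for Slc1a5, a glutamine transporter, and -0.33 (SE 0.14) for Slc25a22, a mitochondrial glutamate carrier. Against control replicate 3 alone Slc1a5 was at -0.32. Slc38a3, the glutamine transporter of pericentral cells, had 2584, 2151 and 2420.1 CPM in knockout livers, against 3604 and 2703 CPM in control livers, below 0 where Glul was above. It was named after its values were seen.

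Around Gulo, 7 of the 8 genes of vitamin C synthesis and transport had fold changes above 0, with a median of 0.22 and 0 edgeR calls. Leaving out control replicate 1 gave a median of 0.10, and leaving out knockout replicate 2 gave 0.13. None had an unadjusted p under 0.05, and DESeq2 called 0. Rgn, the gluconolactonase of the step before Gulo, had 1396, 1383 and 1352 CPM in knockout livers, against 1191 and 1178 CPM in control livers. The groups did not overlap for Rgn, the only such gene of the 8 (8.16% of all genes lay wholly above). Rgn is also on the list of 18 other pericentral genes and is among the 5 that lay wholly above the controls there. Its log2 fold change was 0.22 (SE 0.14). Ugp2, which supplies UDP-glucose, had one of 0.29 (SE 0.19), and the beta-glucuronidase gene Gusb one of 0.30 (SE 0.15). Against control replicate 3 alone these were 0.04 and 0.16, and against control replicate 1 alone 0.58 and 0.45.

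The Wnt pathway itself was measured from ligand to target. Of 17 ligands, R-spondins and secretion factors, 10 were tested, 5 with fold changes above 0 and 5 below (median -0.06), and 3 were at 0 in every library. Wnt2, a ligand of liver endothelial cells, had 1.82, 2.02 and 0.906 CPM in knockout livers, against 1.57 and 2.68 CPM in control livers, with a log2 fold change of -0.42 (SE 0.40) that was 0.02 without control replicate 3. For Porcn, which lipidates Wnt proteins, it was -0.43 (SE 0.27), and Wnt2b had one of 0.48 (SE 0.32). Porcn was at -0.09 against control replicate 3 alone and at -0.70 against control replicate 1 alone, and Wnt2b was at 0.22 when knockout replicate 3 was left out. Rspo3 and Wnt9b, named after their values were seen, had log2 fold changes of -0.15 (SE 0.23) and 0.01 (SE 0.30), with overlapping groups. Beside these, the endothelial markers Pecam1, Cdh5 and Thbd had log2 fold changes of -0.69 (SE 0.23), -0.57 (SE 0.19) and -0.77 (SE 0.26), none of them past the edgeR threshold. Against control replicate 1 alone Pecam1 was at -0.44 and Cdh5 at -0.33.

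Of 17 receptors and co-receptors, 11 were tested, 6 above 0 and 5 below, with a median of 0.11. That median was -0.02 with no low-count filter and -0.03 to 0.06 with any 1 library left out, so no direction can be given for the receptors. The log2 fold changes were -0.45 (SE 0.19) for the receptor Fzd5, with Fzd7 at 0.24 (SE 0.12) and the co-receptor Lrp6 at -0.17 (SE 0.12), each with groups that did not overlap. These 3 were named for having the smallest p on the list, a choice that favours separated groups. Of the 11 tested, 1 lay wholly above the controls (8.16% of all genes) and 2 wholly below (8.72% of all genes). Fzd5 was at -0.19 against control replicate 3 alone and at -0.68 against control replicate 1 alone. Of 20 genes of beta-catenin, its destruction complex and TCF factors, 19 were tested, 13 above 0 and 6 below, with a median of 0.04 and a range of -0.11 to 0.33. The median was 0.13 without control replicate 3. The Dishevelled genes Dvl1 and Dvl2 had log2 fold changes of 0.21 (SE 0.12) and 0.25 (SE 0.17), and the coactivator gene Bcl9l one of 0.15 (SE 0.12). Dvl1 was at 0.13 when knockout replicate 3 was left out, Dvl2 at 0.16 against control replicate 1 alone, and Bcl9l at 0.08 when knockout replicate 2 was left out and 0.23 when knockout replicate 1 was.

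Of 20 further Wnt feedback and target genes, 14 were tested, 5 above 0 and 9 below, with a median of -0.08 that was 0.04 with no low-count filter. Tnfrsf19, a Wnt-responsive receptor, had 10.8, 9.35 and 7.94 CPM in knockout livers, against 6.97 and 5.12 CPM in control livers. Its log2 fold change was 0.63 (SE 0.21). Sfrp1, a secreted Wnt inhibitor, had 0.293, 0.392 and 0.406 CPM in knockout livers, against 1.26 and 0.576 CPM in control livers. Its log2 fold change was -1.33 (SE 0.42). Sox9, a factor of bile duct cells and Wnt-responsive progenitors, had one of -0.82 (SE 0.32). Its highest knockout library, at 4.797 CPM, was only just below its lower control library, at 4.810 CPM. Against control replicate 3 alone Sfrp1 was at -0.66 and Sox9 at -0.41. The groups did not overlap for these 3 genes. Of the 14 tested on this list, 1 lay wholly above the controls (8.16% of all genes) and 4 wholly below (8.72% of all genes). On the 4 lists of the Wnt pathway, 0 genes were called by edgeR or by DESeq2. At an unadjusted p under 0.05 these 3 were the only ones on the 4 lists. Of them, 1 was higher (1.63% of all genes) and 2 were lower (1.80% of all genes).

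**Figure D5:**
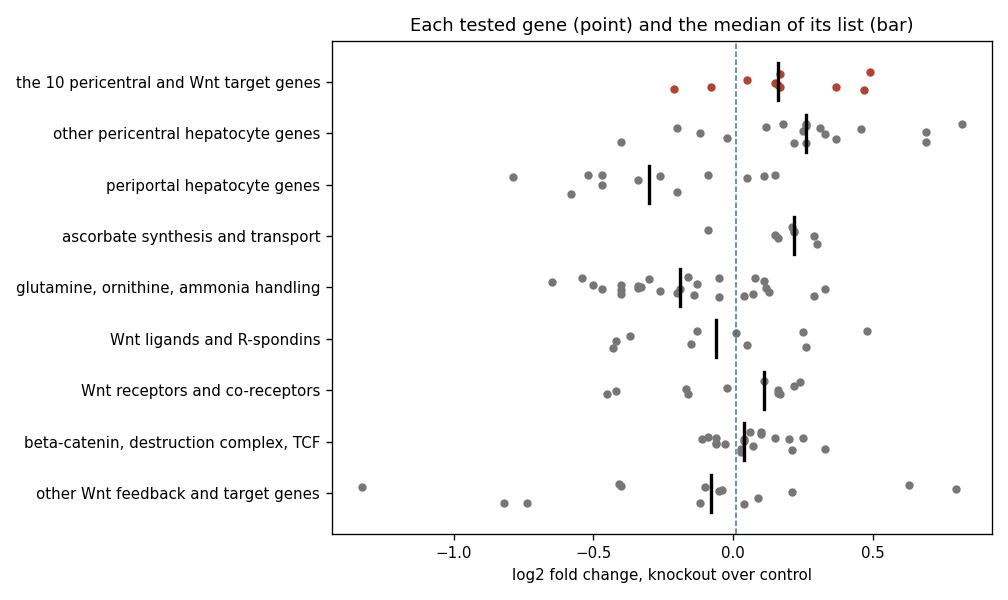
Log2 fold change, knockout over control, of each tested gene (points) in the 10 genes and in 8 other lists, with the median of each list as a bar and the median of all genes (0.01) as a dashed line. The bar of the 18 other pericentral genes is at 0.26 and that of the 12 periportal genes at -0.30.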

How the data were processed

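The authors deposited raw, whole-number gene counts in 1 table. The submitters' processing notes list the counter featureCounts 1.4.6-p4, part of Subread 1.4.6-p4, with Trimmomatic 0.33 and FastQC, and the build names mm10 and GRCm38. The sources used here give no annotation release, strand setting or rule for reads with several matches. Of 46983 identifiers, 46488 matched GENCODE vM21 (same build), which gave the symbols.

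Genes were kept by filterByExpr, which left 16441, scaled by TMM and compared with the two-sided quasi-likelihood F test of edgeR 4.0.16 (R 4.3.3), with p-values adjusted by Benjamini-Hochberg over all kept genes. SEs and 95% intervals came from the F statistic. DESeq2 1.42.0 and limma 3.58.1 were alternatives, as were other scalings, filters, all 6 columns and leaving out each library. With 29557477 to 33685670 counts per library, 3 counts correspond to 0.0891 to 0.101 CPM (counting error only). The profiles used log2(CPM + 0.5).

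The members and lists were chosen with earlier results of these data known. Named genes were Mtdh, the 10 genes, the 3 genes of smallest p on each list described, the 5 genes most like Glul, and neighbours of Oat and Lhpp. Others are stated as chosen after their values were seen. Lists received no test. Some results that this rule names are not reported here.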

Additional observations from a re-analysis of the deposited data

How the results depend on the processing

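Of the 10 genes, 0 were called under all 15 alternatives. The number with a fold change above 0 was 6 to 8 when 1 library was left out and 7 or 8 otherwise, and their median log2 fold change was 0.08 to 0.26 and 0.07 to 0.18. Over all genes, DESeq2 called 6 higher and 13 lower genes, 3 were lower without a low-count filter, and 1 to 6 were lower when 1 library was left out, 6 of them without control replicate 3, with 0 higher by edgeR in each case. DESeq2 called 1 periportal gene, Hal (log2 fold change -0.79).

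The log2 fold change changed sign when 1 library was left out for Oat (range -0.16 to 0.55), Slc1a2 (-0.02 to 0.23), Axin2 (-0.25 to 0.20), Rhbg (-0.30 to 0.85), Rnf43 (-0.18 to 0.03), Aldh1b1 (-0.87 to 0.08) and Wnt2 (-0.76 to 0.02). The libraries concerned are named beside each gene above. The signs of Glul, Gulo, Lgr5, Lhpp and Tbx3 held under all 15 alternatives. Leaving out a control library leaves 1, which is assumed to vary like the knockout libraries.

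Replicate numbers are shared between the groups, but the labels do not say that they pair mice. By chi-square divided by its degrees of freedom, knockout replicate 3 was closer to control replicate 3 (49.4) than to the other knockout libraries (86.3 and 105.9). Deviations from the group mean correlated at -0.03 for libraries numbered 1 and 0.14 for those numbered 3, over 10105 genes. With 2 control libraries, the control deviations are exact opposites, so the correlations given here are tied to each other. The identical column could as well belong to control replicate 2, and it correlated at 0.16 with knockout replicate 2. With it numbered 1, an arbitrary choice, and the replicate number as a block, 0 genes were lower, the log2 fold change of Mtdh was -4.28 (edgeR adjusted p 0.0517) and that of Axin2 -0.25. Rhbg had the fewest counts of the 10 genes, 21 to 45 per library, and the row of Gm38392 overlaps it on the same strand. The cause of these shifts was not tested.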
